A study of Mus musculus with 98 samples.

Results

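The measurements described here are 23 of the 98 arrays of the series: those of mice given lipopolysaccharide (LPS) whose titles carry the letter E, 11 from blood and 12 from spleen. They were chosen by their titles alone, and the question put to them was whether the difference between the codes x and c in blood differed from the same difference in spleen. Blood holds 5 x arrays and 6 c arrays, and spleen holds 6 x arrays and 6 c arrays. Per the labels, the blood RNA came from white blood cells, the letter E blood arrays of the LPS set are marked as LPS infusion, and the spleens came from LPS-infused mice. The letter E is not particular to LPS, since titles of the burn and trauma-hemorrhage sets carry it too. The labels do not explain the codes x and c, so a response to LPS cannot be read from their difference and the values are given as coded, x minus c. All 4 groups are labelled as LPS-infused, the spleen titles carry a version mark (v2) that the blood titles lack, and the labels give no strain, age, dose or time. The labels do not state whether each array had its own animal, and p-values therefore reflect the spread among arrays, part or all of which may be technical.

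LPS, a component of the outer membrane of Gram-negative bacteria, is sensed by Cd14 and Tlr4. Signalling through NF-kB then induces chemokines and feedback inhibitors, and type I interferon induces antiviral genes such as Ifit1 and Rsad2. In blood the neutrophil is known to be released from the marrow in large numbers during endotoxemia, including young cells that still carry messages for granule proteins. The spleen filters blood through red pulp macrophages, which recycle iron, and holds large B and T cell zones.

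Across 11645 genes, the x minus c difference differed between blood and spleen for 912, or 7.83% of the genes tested. Of 21 neutrophil markers 6 had a larger x minus c in blood (3.39% of all genes had a difference above 0). Among them were the granule genes Ngp and Camp, which differed by 2.35 ± 0.64 log2 and 2.25 ± 0.64 log2 between the tissues. Of 23 interferon-induced genes 4 had a difference towards spleen (4.44% of all genes had). Of 25 chemokine and receptor genes 2 passed, both towards spleen, a share close to the 7.83% of all genes. The median difference of that list was 0.11 log2, towards blood. Cxcl9 did not pass the test in x blood and rose in x spleen, with a difference of -2.17 ± 0.17 log2, and Rsad2 had a difference of -1.47 ± 0.24 log2. Acod1, Cxcl2 and Cxcl10, among other inflammatory genes, rose in both tissues without passing for the difference. These are differences in log2 intensity, blood minus spleen, ± SE, and a positive one means that x minus c was higher in blood. Levels were never compared between the tissues, since the blood and spleen arrays were scaled apart.

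The promoters of 7 genes are shown as examples. Cxcl9, Ifit1 and Rsad2 had the larger difference in spleen, and Ngp and Pglyrp1 the larger difference in blood. Cxcl10 and Cxcl2 rose in both tissues without passing for the difference. All 7 windows hold a match to the letters below, which not every gene of these patterns does: the windows of Camp, Il1r2 and Acod1 hold none. Each runs from 250 bases before to 50 after the start site in RefSeq (GRCm38.p6). The capitals mark matches, on either strand, to the letters of an interferon-stimulated response element (ISRE, GAAANNGAA), a kappa B site (GGGANTTTC), a C/EBP site (TTGCNNAA) or an AP-1 site (TGANTCA), where N is any base.
Cxcl9: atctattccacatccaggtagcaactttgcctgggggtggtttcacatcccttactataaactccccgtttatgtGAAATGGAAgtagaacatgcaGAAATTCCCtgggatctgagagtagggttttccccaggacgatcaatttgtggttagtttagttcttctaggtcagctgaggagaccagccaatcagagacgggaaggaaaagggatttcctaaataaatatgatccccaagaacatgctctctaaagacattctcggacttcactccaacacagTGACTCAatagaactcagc
Ifit1: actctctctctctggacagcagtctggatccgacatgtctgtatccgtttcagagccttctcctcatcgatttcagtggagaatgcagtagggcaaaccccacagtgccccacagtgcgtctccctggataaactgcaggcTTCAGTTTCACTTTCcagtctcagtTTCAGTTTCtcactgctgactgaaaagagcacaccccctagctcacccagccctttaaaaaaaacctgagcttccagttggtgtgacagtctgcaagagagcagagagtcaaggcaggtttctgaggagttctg
Rsad2: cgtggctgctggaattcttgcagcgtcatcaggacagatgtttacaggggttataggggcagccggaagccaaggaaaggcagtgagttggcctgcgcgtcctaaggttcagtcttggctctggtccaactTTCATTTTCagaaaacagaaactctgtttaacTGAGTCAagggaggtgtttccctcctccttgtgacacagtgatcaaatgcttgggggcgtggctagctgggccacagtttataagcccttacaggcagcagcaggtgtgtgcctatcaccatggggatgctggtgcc
Cxcl10: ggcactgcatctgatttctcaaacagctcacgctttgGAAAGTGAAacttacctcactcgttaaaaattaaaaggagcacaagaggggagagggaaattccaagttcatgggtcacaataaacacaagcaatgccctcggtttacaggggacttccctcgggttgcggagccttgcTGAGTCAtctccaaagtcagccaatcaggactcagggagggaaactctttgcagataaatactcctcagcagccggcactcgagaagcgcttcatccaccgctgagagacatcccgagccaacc
Cxcl2: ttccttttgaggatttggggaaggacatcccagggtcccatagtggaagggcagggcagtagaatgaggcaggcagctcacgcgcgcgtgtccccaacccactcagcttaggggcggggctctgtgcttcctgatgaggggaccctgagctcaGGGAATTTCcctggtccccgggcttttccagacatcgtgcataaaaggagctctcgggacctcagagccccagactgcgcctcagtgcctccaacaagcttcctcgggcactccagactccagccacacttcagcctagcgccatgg
Ngp: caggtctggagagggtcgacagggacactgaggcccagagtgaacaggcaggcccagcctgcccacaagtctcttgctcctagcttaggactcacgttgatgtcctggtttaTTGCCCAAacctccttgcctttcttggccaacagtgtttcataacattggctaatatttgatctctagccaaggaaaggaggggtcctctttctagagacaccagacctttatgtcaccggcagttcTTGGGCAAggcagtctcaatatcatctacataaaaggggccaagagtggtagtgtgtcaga
Pglyrp1: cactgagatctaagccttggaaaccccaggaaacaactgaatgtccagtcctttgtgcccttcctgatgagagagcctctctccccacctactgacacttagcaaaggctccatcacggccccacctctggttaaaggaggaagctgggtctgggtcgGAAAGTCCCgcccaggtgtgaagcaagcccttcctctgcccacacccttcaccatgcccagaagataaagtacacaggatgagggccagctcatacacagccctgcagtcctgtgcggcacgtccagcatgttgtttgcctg
Cxcl9 (chr5:92328030-92328329, minus strand) holds an ISRE match at -175 from the start site, a kappa B match at -154 and an AP-1 match at 31. Ifit1 (chr19:34640639-34640938, plus strand) holds 3 ISRE matches, at -109, -103 and -84, of which the first pair overlap. Rsad2 (chr12:26456403-26456702, minus strand) holds an ISRE match at -119 and an AP-1 match at -87. Cxcl10 (chr5:92348840-92349139, minus strand) holds an ISRE match at -213 and an AP-1 match at -74, and Cxcl2 (chr5:90903649-90903948, plus strand) a kappa B match at -97. Ngp (chr9:110419558-110419857, plus strand) holds 2 C/EBP matches, at -138 and -11, and Pglyrp1 (chr7:18884440-18884739, plus strand) a kappa B match at -92.

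Of all 32851 promoter windows of the same length, 8.56% held the ISRE letters, 1.11% the kappa B letters, 10.8% the C/EBP letters and 7.81% the AP-1 letters. Of the 12 named genes with the largest differences towards blood, 11 had a window, of which none held an ISRE match and 2 a C/EBP match. Of the 12 with the largest differences towards spleen, 7 had a window, of which 4 held an ISRE match and 2 a kappa B match. These counts depend on the letters chosen: an ISRE with 1 more A at its end, the form searched first, was in 2 of those 7 windows and in 3.44% of all windows, and a kappa B site with 1 more C was in 0 of the 7 and in 0.411% of all. A match is a description of the letters, not a bound site, and the groups are too small to be set apart from all windows.

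Median intensities were 138 to 145 in blood and 123 to 137 in spleen, and 6.25% to 7.12% of probe sets in blood and 4.36% to 5.72% in spleen lay at the lowest value of their set (32.5 in blood, 25.9 in spleen). The labelled tissues were checked by the rank of marker genes within each tissue. The median marker of platelets lay at percentile 94.5 in blood and 50.3 in spleen, that of neutrophils at 92.9 in blood and 85.8 in spleen, and that of red pulp macrophages at 45 in blood and 73.4 in spleen. B cell markers lay at percentile 87.2 in blood and 96 in spleen. No listed marker was at the lowest value on every array. Stromal markers were low in both tissues, with median percentiles of 35.6 in blood and 32.4 in spleen.

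In all, 4 arrays are called here arrays that stood apart, picked after their values were seen: x blood array 5 and c spleen array 6 by their distance from the rest of their group, and c blood array 5 and c spleen array 2 by raised inflammatory genes. The blood array labelled x 5 had c-like values for many genes: its Ngp intensity was 409, against 4043 to 7764 on the other x blood arrays and 217 to 523 on the c blood arrays. Its Camp intensity of 87.7 lay below all 6 c blood arrays, while its Csf3r intensity of 1802 and its Slc2a3 intensity of 3793 lay among the other x arrays. The c blood array 5 was raised for the same inflammatory genes, with an Acod1 intensity of 548, against 115 to 204 on the other c blood arrays. In spleen, c array 2 was raised likewise, with a Cxcl2 intensity of 878, against 41.6 to 77.6 on the other c spleen arrays. The c spleen array 6 lay 0.312 log2 (root mean square over genes) from the mean of the rest of its group, against 0.146 to 0.184 for the other c spleen arrays. The corresponding distance of x blood array 5 was 0.311, against 0.133 to 0.259 for the other x blood arrays. By that distance the other pair did not stand apart: c spleen array 2 lay at 0.167, inside the range of its group, and c blood array 5 at 0.241, below the 0.259 of x blood array 3. Fits without the 4 arrays show how far a result rests on them. Since gene values took part in the choice, passing only in such a fit is no support for a difference.

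A measure of RNA integrity separated the codes in blood. For the control probe sets of beta-actin, the log2 ratio of the 3' over the 5' signal was 1.08 ± 0.127 on x blood arrays and 1.56 ± 0.0516 on c blood arrays (SD, n = 5 and 6, exact permutation test, two-sided, adjusted p = 0.00866 over 4 tests), and the groups did not overlap. The Gapdh ratio ran the other way in blood, at 2.91 ± 0.077 on x arrays and 2.73 ± 0.0664 on c arrays (SD, n = 5 and 6, adjusted exact p = 0.00866). In spleen the beta-actin ratio was 2.03 ± 0.118 on x arrays and 2.01 ± 0.139 on c arrays (SD, n = 6 each, adjusted exact p = 0.965). The x blood array 5 had a beta-actin ratio of 1.11, inside the range of the other x blood arrays, 0.938 to 1.27. In blood, therefore, the code and what moves the beta-actin ratio cannot be told apart, and with that ratio as a covariate 379 genes passed for the difference between tissues, 115 of them among the 912. Of the 912 differences 53 changed sign with this covariate, and of the 2108 genes called in blood 265 did so there. The median SE of the genes called in blood was 0.274 log2 with it and 0.0947 log2 without. For the genes called in spleen it was 0.0992 and 0.105 log2. A call lost in blood or for the difference with this covariate therefore does not show that a change is absent.

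**Figure D1:**
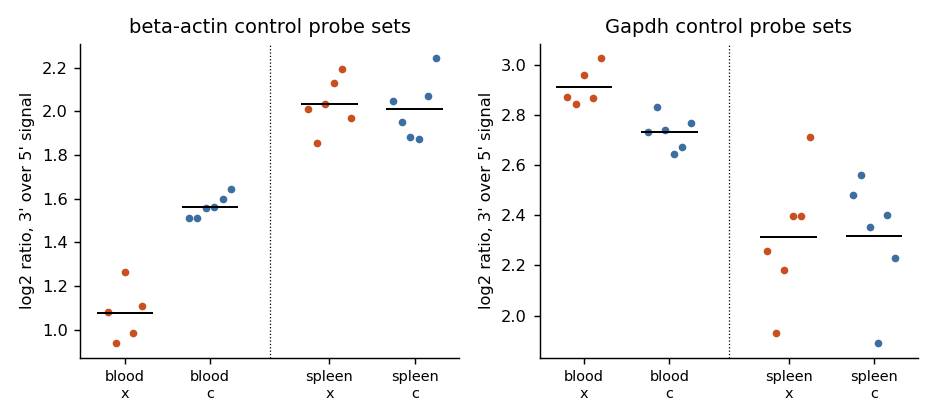
Log2 ratio of the 3' over the 5' signal on each array, for control probe sets of beta-actin (left panel) and Gapdh (right panel), by tissue and code. Points are arrays and lines are group means. The 5 x blood arrays lie between 0.938 and 1.27 for beta-actin, below the 6 c blood arrays at 1.51 to 1.64, while x and c overlap in spleen.

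The first comparison asked how far x and c differed in each tissue. In blood 2108 genes passed (18.1% of those tested), 945 higher and 1163 lower in x, and in spleen 354 passed (3.04%), 274 higher and 80 lower in x. The balance in blood depended on the scaling, with 975 higher and 832 lower after median scaling, and 955 higher and 940 lower on the values as deposited. Of the calls above, 181 passed in both tissues, which is 8.59% of the blood calls and 51.1% of the spleen calls. They moved the same way in 169 cases and opposite ways in 12. Across the 11645 genes, x minus c in blood and in spleen had a Pearson correlation of 0.49 and a Spearman correlation of 0.21, given as a description of genes measured on the same arrays.

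The difference itself passed for 912 genes, with 395 above 0 (3.39%) and 517 below 0 (4.44%), and 2228 genes had an unadjusted p under 0.05. After median scaling 338 were above 0 and 323 below, so the larger number below 0 also depended on the scaling. Most of the 912 were called in blood alone: 778 passed in blood and not in spleen, 64 in spleen and not in blood, 35 in both and 35 in neither. The change was the larger one in blood for 809 of them and in spleen for 103. Passing in 1 tissue was not enough to show a difference between tissues: of 2100 genes that did so, 1258 did not pass for the difference. Of the 912, 56 (0.481% of those tested) were at least 1 log2 apart, 33 above 0 and 23 below, against 131 genes (1.12%) that passed with a change of at least 1 log2 in blood and 66 (0.567%) in spleen. All x arrays lay above all c arrays for 470 genes in blood (4.04% of those tested) and 233 in spleen, and below all c arrays for 480 in blood (4.12%) and 110 in spleen (0.945%). Without the 4 arrays that stood apart, 1481 genes passed, 672 above 0 and 809 below, and 1397 passed without x blood array 5 alone.

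**Figure D2:**
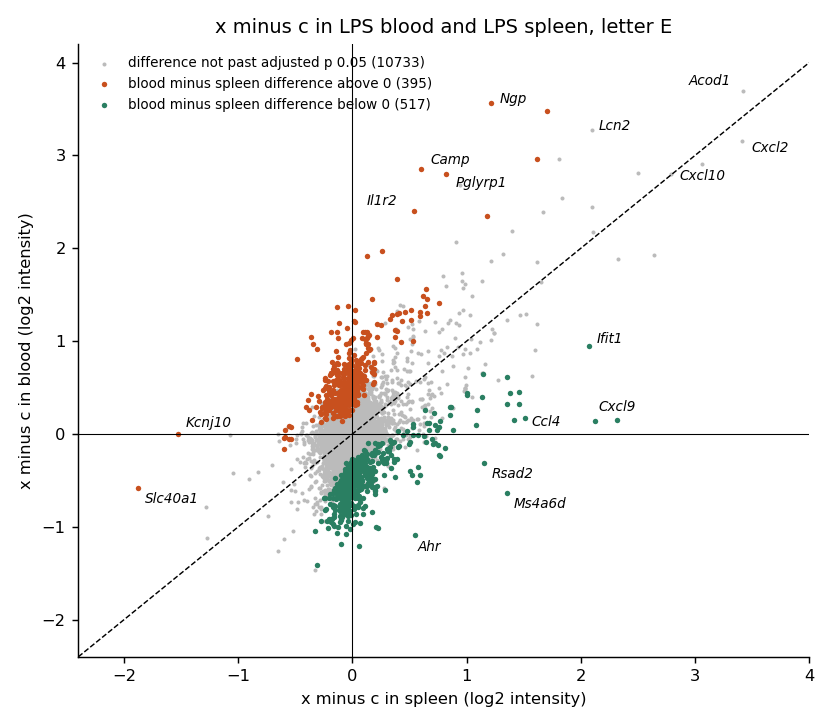
Each point is 1 of 11645 genes, with x minus c in blood on the vertical axis and x minus c in spleen on the horizontal axis, both in log2 intensity. Colours mark the 395 genes with a blood minus spleen difference above 0 and the 517 below 0, and the dashed line marks equal differences. Ngp and Camp lie high above the line, Cxcl9 and Ms4a6d far below it, and Acod1, Cxcl2 and Cxcl10 close to it.

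Neutrophil genes gave the 3 largest differences towards blood among named genes. Of 21 tested markers, 6 had a difference above 0 (3.39% of all genes did) and none below, with a median difference of 0.90 log2, against 0.00192 log2 over all genes. In blood 16 of the 21 rose in x (8.12% of all genes did) with a median of 1.31 log2, and in spleen 6 of the 21 rose (2.35% of all genes) with a median of 0.76 log2. The medians of all genes were -0.01 log2 in blood and -0.02 log2 in spleen. With the 4 arrays that stood apart left out, 13 of the 21 passed for the difference, and 16 rose in blood and 12 in spleen. The larger counts are no added support, since the arrays were picked after values such as those of Ngp were seen. With the beta-actin ratio as a covariate none passed for the difference or in blood, and 6 rose in spleen. The median was then 1.25 log2 in blood and the median difference 0.47 log2. The early granule genes Elane, Mpo, Prtn3 and Ctsg, expressed in promyelocytes, did not pass in either tissue. The summed intensity of the list was 38200 to 73000 on x blood arrays and 14200 to 39400 on c blood arrays, and 27200 to 39800 on x spleen arrays and 12900 to 28800 on c spleen arrays. In a bulk sample more neutrophils and more of these messages per neutrophil cannot be told apart.

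Ngp encodes a protein of the neutrophil's secondary granules. On the 5 x blood arrays, Ngp had intensities of 5259, 7764, 4043, 5945 and 409, and on the 6 c blood arrays of 217 to 523 (median 236). The 6 x spleen arrays ran from 2046 to 3738 (median 2595), against 753 to 1646 (median 1235) on the 6 c spleen arrays. The x blood arrays 1 to 4 were far above every c array and x array 5 lay among the c arrays, so the blood groups overlapped, while in spleen every x array was above every c array. Ngp rose by 3.57 ± 0.46 log2 in blood (adjusted p = 2.55e-06) and had 1.21 ± 0.44 log2 in spleen (adjusted p = 0.198), and the difference between tissues was 2.35 ± 0.64 log2 (adjusted p = 0.0198). That spleen p rests on a spread shared with blood: with each tissue fitted alone it was 0.00106, and without x blood array 5 it was 0.000135. The difference ran from 2.06 to 3.12 log2 with 1 array left out at a time, and lost its call without x blood array 4, with no filter on low values, with a robust variance model, with letter A arrays added, in the second run of title numbers alone and with the beta-actin covariate.

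Camp encodes cathelicidin, an antimicrobial peptide of the same granules. Blood intensities of Camp were 1186, 2552, 1002, 1508 and 87.7 on x arrays 1 to 5, against 94.5 to 125 (median 104) on the c arrays. Spleen intensities were 487 to 1006 on x arrays (median 718) and 272 to 767 on c arrays (median 489). The x blood arrays other than array 5 were all far above the c arrays, and in spleen the groups overlapped. Camp rose by 2.85 ± 0.46 log2 in blood (adjusted p = 4.71e-05) and had 0.60 ± 0.44 log2 in spleen (adjusted p = 0.831). The difference between tissues was 2.25 ± 0.64 log2 (adjusted p = 0.0265), and leaving out 1 of the 23 arrays at a time gave 1.89 to 2.99 log2, the highest without x blood array 5. The call was lost without x blood array 1, 2 or 4 or c spleen array 3, with no filter on low values, with a robust variance model, with letter A arrays added, in the second run of title numbers alone and with the beta-actin covariate.

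Pglyrp1, which binds bacterial peptidoglycan, is also stored in neutrophil granules, and its promoter is among those shown. In blood Pglyrp1 measured 3091, 3076, 2059, 3639 and 1332 on the x arrays, against c arrays of 227 to 648 with a median of 324. For spleen, x intensities spanned 467 to 938 with a median of 606, and c intensities 210 to 621 with a median of 321. In blood all 5 x arrays lay above all 6 c arrays, x array 5 included, and in spleen the groups overlapped through c array 2. It rose by 2.80 ± 0.27 log2 in blood (adjusted p = 5.75e-08) and had 0.82 ± 0.25 log2 in spleen (adjusted p = 0.0929, or 0.0442 with each tissue fitted alone). Its difference between tissues was 1.98 ± 0.37 log2 (adjusted p = 0.00103).

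Cd177, a neutrophil surface glycoprotein, rose in both tissues. Intensities of Cd177 in blood were 1994, 2465, 1350, 2441 and 643 on x arrays, against 128 to 279 (median 179) on c arrays. Among spleen arrays, x values were 317 to 728 (median 489), against c values of 95.8 to 246 (median 138). Every x array was above every c array in blood and in spleen. It rose by 2.96 ± 0.28 log2 in blood and by 1.61 ± 0.27 log2 in spleen (adjusted p = 5.75e-08 and 0.000273), and the difference was 1.35 ± 0.39 log2 (adjusted p = 0.0308). That call was lost in 10 of 23 fits with 1 array left out (lowest value 1.21 log2), with no filter on low values, a robust variance model, letter A arrays added, normalization over all arrays of the tissue, the second run of title numbers alone or the beta-actin covariate, and without the 4 arrays the difference was 1.77 log2. Csf3r, the receptor for the granulocyte growth factor G-CSF, rose by 0.91 ± 0.17 log2 in blood (adjusted p = 0.000227) and had -0.31 ± 0.16 log2 in spleen (adjusted p = 0.561), and Padi4, which citrullinates histones in neutrophils, was the other marker whose difference passed, at 0.90 log2. Ltf, encoding lactoferrin, rose by 2.68 log2 in blood without passing for the difference, and S100a8 and S100a9 rose in both tissues, by 0.84 and 1.23 log2 in blood and by 0.76 and 0.86 log2 in spleen.

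Il1r2, the decoy receptor that binds interleukin-1 without signalling, had a difference of 1.86 ± 0.44 log2 (adjusted p = 0.00793). Across x blood arrays, Il1r2 had 1763, 1550, 1102, 1799 and 715 units of intensity, against 126 to 836 (median 172) across c blood arrays. Its x spleen intensities were 403 to 584 (median 520), against 257 to 560 (median 320) for c. The c blood array 5 lay among the x blood arrays, and no other c array did. The difference was 2.37 log2 with the 4 arrays left out. Its call was lost with letter A arrays added, in the second run of title numbers alone and with the beta-actin covariate. Slpi, a secreted inhibitor of neutrophil proteases, rose by 1.45 ± 0.15 log2 in blood, with every x array above every c array, and had 0.17 ± 0.14 log2 in spleen (adjusted p = 0.872), a difference of 1.28 ± 0.21 log2 (adjusted p = 0.000232).

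**Figure D3:**
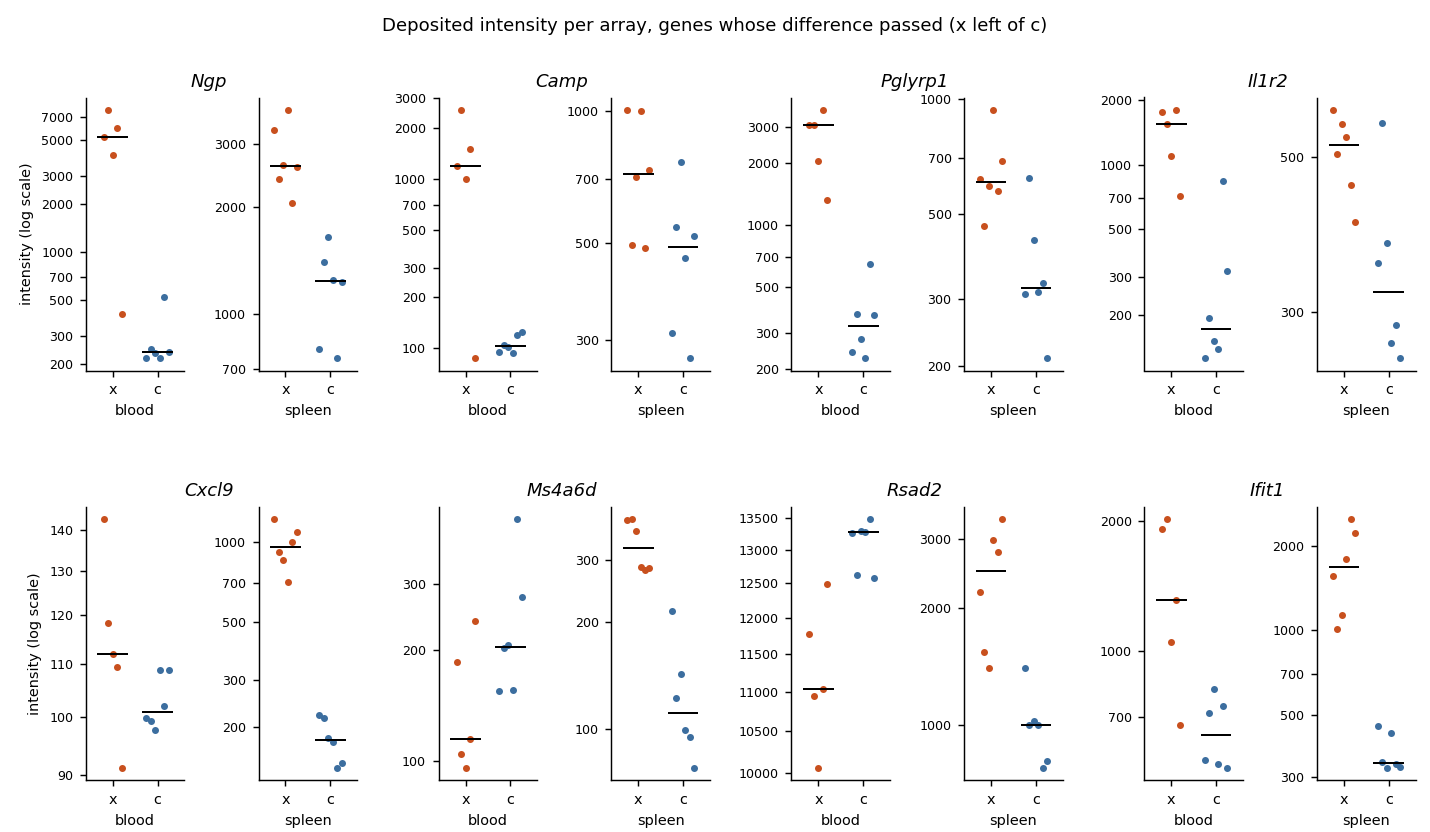
Deposited intensity on each array (log axis) for 4 genes with the larger x minus c in blood (Ngp, Camp, Pglyrp1, Il1r2) and 4 with the larger x minus c in spleen (Cxcl9, Ms4a6d, Rsad2, Ifit1). Each gene has a blood and a spleen panel with axes of their own, since levels cannot be compared between tissues, and lines are medians. The lowest x blood point of Ngp, at 409, and of Camp, at 87.7, is x array 5.

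The other genes with large differences towards blood were of mixed function. Marcksl1, a substrate of protein kinase C that binds actin, rose in both tissues and more in blood. The intensity of Marcksl1 on the 5 x blood arrays was 2699, 2913, 1788, 2899 and 426, against 116 to 200 with a median of 137 on the 6 c blood arrays. In spleen the x arrays lay between 1490 and 1869 (median 1669) and the c arrays between 387 and 1028 (median 431). All x arrays lay above all c arrays in both tissues, and the difference was 1.77 ± 0.46 log2 (adjusted p = 0.0141). It was 2.16 log2 with the 4 arrays left out. The call was lost with letter A arrays added, in the second run of title numbers alone and with the beta-actin covariate. The other 3 probe sets of Marcksl1 gave differences of 1.20 to 2.39 log2.

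Adpgk, an ADP-dependent glucokinase, rose by 1.92 ± 0.21 log2 in blood (adjusted p = 2.73e-07) and had 0.13 ± 0.20 log2 in spleen (adjusted p = 0.975). On the 5 x blood arrays, Adpgk had intensities of 552, 817, 535, 743 and 197, and on the 6 c blood arrays of 113 to 149 (median 126). The 6 x spleen arrays ran from 317 to 422 (median 381), against 283 to 456 (median 324) on the 6 c spleen arrays. The x arrays were above the c arrays in blood and overlapped them in spleen. Its difference was 1.79 ± 0.29 log2 (adjusted p = 0.000266), and 2.01 log2 without the 4 arrays. That call was lost in the second run of title numbers alone and with the beta-actin covariate. Gpsm3, a regulator of G protein signalling, and Slfn1, of the Schlafen family, behaved alike, with differences of 1.50 ± 0.21 log2 and 1.41 ± 0.22 log2 (adjusted p = 6.25e-05 and 0.000192) and x arrays above c arrays in blood. Pla2g7, which degrades platelet-activating factor, and Scrg1 had differences of 1.31 ± 0.34 log2 and 1.31 ± 0.16 log2 (adjusted p = 0.0141 and 1.51e-05).

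Of 11 tested platelet markers 6 rose in x blood (8.12% of all genes did) and none in x spleen (2.35% of all genes), with medians of 0.29 and -0.07 log2, and 3 had a difference above 0 (3.39% of all genes): Pf4 (0.53 log2), the integrin subunit Itga2b (0.45 ± 0.13 log2) and the glycoprotein Gp5 (0.53 ± 0.12 log2). Blood intensities of Gp5 were 534, 705, 566, 603 and 600 on x arrays 1 to 5, against 372 to 467 (median 438) on the c arrays. Spleen intensities were 126 to 168 on x arrays (median 148) and 146 to 197 on c arrays (median 152). In blood all x arrays were above all c arrays, and in spleen the groups overlapped. The summed intensity of the platelet list was 20900 to 27400 on x blood arrays and 17400 to 24400 on c blood arrays. With the beta-actin ratio as a covariate no platelet marker passed in blood or for the difference, and the difference of Itga2b became -0.04 log2. The call of Itga2b was also lost in 8 of 23 fits with 1 array left out.

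Slc2a3, the glucose transporter GLUT3, had a difference of 1.21 ± 0.16 log2 (adjusted p = 3.23e-05). In blood Slc2a3 measured 3568, 4085, 3074, 3907 and 3793 on the x arrays, against c arrays of 1330 to 1647 with a median of 1541. For spleen, x intensities spanned 563 to 826 with a median of 736, and c intensities 485 to 970 with a median of 718. The blood groups did not overlap and the spleen groups did. Of its other 3 probe sets, 1 gave 0.99 log2 and the dimmer pair gave -0.04 and -0.12 log2. The glycolytic enzyme Pkm had a difference of 0.82 ± 0.19 log2 (adjusted p = 0.00524), and these were the 2 of 18 genes of the glycolysis list that passed, close to the 7.83% of all genes, with a median difference of 0.03 log2 over the list. Of 18 genes of oxidative stress defence, 4 passed above 0 (3.39% of all genes did) and none below. They were thioredoxin (Txn1, 0.94 ± 0.22 log2), the NADPH oxidase subunits Ncf1 (0.91 ± 0.24 log2) and Cyba (0.64 log2) and the transcription factor Nfe2l2 (0.74 log2). With the beta-actin ratio as a covariate none of the 4 passed, and the difference of Ncf1 became -0.40 log2. The MHC class I genes H2-D1 and H2-K1, which present peptides to CD8 T cells, rose in blood by 0.71 ± 0.11 and 0.48 ± 0.08 log2. They had 0.06 ± 0.10 and 0.01 ± 0.08 log2 in spleen. They were the 2 of 14 genes of their list that passed for the difference (7.83% of all genes did), and neither passed with the beta-actin covariate. Their sequences are close to those of other class I genes, so their probe sets may share signal.

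Of the named genes, Cxcl9, a chemokine that draws activated T cells and is induced by interferon gamma, had the largest difference towards spleen. Intensities of Cxcl9 in blood were 143, 118, 112, 109 and 91.2 on x arrays, against 97.6 to 109 (median 101) on c arrays. Among spleen arrays, x values were 706 to 1223 (median 960), against c values of 140 to 220 (median 177). The blood groups overlapped and the spleen groups were far apart. It had 0.15 ± 0.12 log2 in blood (adjusted p = 0.504) and rose by 2.31 ± 0.12 log2 in spleen (adjusted p = 3.59e-13), and its difference of -2.17 ± 0.17 log2 (adjusted p = 1.08e-08) still passed with the beta-actin ratio as a covariate, at -2.28 log2 (adjusted p = 0.00392).

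Ccl4, which attracts monocytes and NK cells, was the other of 25 chemokine and receptor genes that passed, a share close to the 7.83% of all genes, and the list's median difference was 0.11 log2, towards blood. Without the 4 arrays that stood apart, 4 of the 25 passed above 0 and 4 below. Across x blood arrays, Ccl4 had 556, 525, 520, 593 and 656 units of intensity, against 473 to 528 (median 493) across c blood arrays. Its x spleen intensities were 483 to 700 (median 524), against 160 to 265 (median 178) for c. It had 0.17 ± 0.11 log2 in blood (adjusted p = 0.353), rose by 1.51 ± 0.10 log2 in spleen with no overlap of the groups, and differed by -1.34 ± 0.15 log2 (adjusted p = 3.6e-06).

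Of 23 interferon-induced genes 10 rose in blood (8.12% of all genes did), with a median of 0.29 log2, and 15 rose in spleen (2.35% of all genes), with a median of 0.61 log2. None fell in either tissue. The median difference was -0.20 log2. The 4 that passed for the difference were Rsad2, Ifih1, Ifit1 and Isg20 (4.44% of all genes passed below 0), and none passed the other way. Without the 4 arrays that stood apart 4 passed below 0. With the arrays of the first run of title numbers alone 2 did, with a median difference of 0.06 log2. With the beta-actin ratio as a covariate 1 did, while none rose in blood, where the median was 0.01 log2, and 15 rose in spleen.

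Rsad2 encodes viperin, an antiviral enzyme. The intensity of Rsad2 on the 5 x blood arrays was 11780, 10950, 10060, 11040 and 12490, against 12580 to 13480 with a median of 13280 on the 6 c blood arrays. In spleen the x arrays lay between 1401 and 3377 (median 2489) and the c arrays between 774 and 1401 (median 998). In blood the probe set was bright on every array, and all x arrays lay slightly below all c arrays. In spleen x was higher, and the groups met at 1401. It had -0.32 ± 0.17 log2 in blood (adjusted p = 0.24) and rose by 1.15 ± 0.16 log2 in spleen (adjusted p = 3.14e-05), a difference of -1.47 ± 0.24 log2 (adjusted p = 0.000247). With each tissue fitted alone the blood value passed (adjusted p = 0.00122). Of its other 2 probe sets, 1 gave -1.35 log2 and the other 0.25 log2.

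Ifit1, an antiviral protein that binds foreign RNA, rose in both tissues. On the 5 x blood arrays, Ifit1 had intensities of 1907, 2012, 1049, 1307 and 672, and on the 6 c blood arrays of 536 to 815 (median 638). The 6 x spleen arrays ran from 1009 to 2488 (median 1680), against 324 to 455 (median 335) on the 6 c spleen arrays. In blood x array 5 overlapped the c arrays, and in spleen every x array was above every c array. It rose by 0.94 ± 0.24 log2 in blood (adjusted p = 0.0046) and by 2.07 ± 0.22 log2 in spleen (adjusted p = 7.08e-07), and the difference was -1.13 ± 0.33 log2 (adjusted p = 0.0294). When the 4 arrays that stood apart were left out, it was -0.77 log2 and did not pass (adjusted p = 0.103).

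Ifih1, the RNA sensor MDA5, had -0.15 ± 0.12 log2 in blood (adjusted p = 0.491) and rose by 0.81 ± 0.12 log2 in spleen with no overlap, a difference of -0.96 ± 0.17 log2 (adjusted p = 0.0006). Blood intensities of Ifih1 were 330, 314, 205, 272 and 314 on x arrays 1 to 5, against 260 to 383 (median 315) on the c arrays. Spleen intensities were 351 to 504 on x arrays (median 390) and 169 to 256 on c arrays (median 233). Its difference passed with the beta-actin ratio as a covariate as well, at -1.67 log2 (adjusted p = 0.0147). The guanylate-binding and immunity-related GTPases, which attack vacuoles of intracellular pathogens, rose in blood in 6 of 9 cases (8.12% of all genes did) and in spleen in 8 of 9 (2.35% of all genes), and 2 had a difference below 0 (4.44% of all genes). With the beta-actin covariate none rose in blood, where the median was -0.04 log2, against 0.40 log2 without it, 8 rose in spleen and 1 had a difference below 0. The 2 above were Igtp (-0.70 ± 0.14 log2, adjusted p = 0.00205) and Iigp1 (-0.73 ± 0.17 log2, adjusted p = 0.00822). Gbp2, Irgm1 and Irgm2 rose in both tissues without passing for the difference, by 0.68, 0.61 and 1.18 log2 in blood and by 0.78, 0.99 and 0.93 log2 in spleen.

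Further genes rose in spleen with differences that passed. Gzmb, the granzyme of cytotoxic cells, rose by 0.44 ± 0.14 log2 in blood and by 1.38 ± 0.13 log2 in spleen. In blood Gzmb measured 434, 341, 364, 323 and 226 on the x arrays, against c arrays of 207 to 296 with a median of 229. For spleen, x intensities spanned 730 to 1072 with a median of 925, and c intensities 253 to 383 with a median of 339. The blood groups overlapped and the spleen groups did not, and the difference was -0.94 ± 0.19 log2 (adjusted p = 0.00186). Metallothionein Mt1, which binds zinc, differed by -1.03 ± 0.22 log2 (adjusted p = 0.00322), and the fatty acid carrier Fabp5 by -1.26 ± 0.20 log2 (adjusted p = 0.000175). The second probe set of Mt1 gave -0.14 log2 and that of Fabp5 -1.09 log2. Prdm1, the transcription factor Blimp-1, differed by -0.73 ± 0.11 log2 and Cdkn1a, the cell cycle inhibitor p21, by -0.63 ± 0.11 log2, with x above c on every spleen array for both. The immediate early genes Jun and Myc had 0.45 and 0.21 log2 in blood and rose by 1.46 and 0.85 log2 in spleen, and both passed for the difference, at -0.65 log2 for Myc.

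Of 14 tested monocyte markers 5 fell in x blood (9.99% of all genes did) and 1 rose, 1 fell and 2 rose in spleen, and 4 had a difference below 0 (4.44% of all genes did). The one that rose in both tissues was Cd14. Without the 4 arrays that stood apart 7 fell in blood and 4 had a difference below 0, against 1 above, and with the beta-actin ratio as a covariate none passed in blood or for the difference. Ms4a6d, a membrane protein of monocytes and macrophages, had the largest at -1.99 ± 0.33 log2 (adjusted p = 0.000307). Intensities of Ms4a6d in blood were 186, 104, 96, 115 and 239 on x arrays, against 155 to 450 (median 204) on c arrays. Among spleen arrays, x values were 280 to 390 (median 324), against c values of 77.8 to 215 (median 111). The blood groups overlapped, and every x spleen array was above every c spleen array. Of its other probe sets, 1 gave -1.27 log2, and the other was at the lowest value throughout.

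Its neighbour in the family, Ms4a6c, fell in blood instead, by 1.21 ± 0.24 log2 (adjusted p = 0.00059), with 0.06 ± 0.23 log2 in spleen (adjusted p = 1) and a difference of -1.26 ± 0.33 log2. Across x blood arrays, Ms4a6c had 476, 252, 317, 312 and 1347 units of intensity, against 665 to 1559 (median 1023) across c blood arrays. Its x spleen intensities were 472 to 653 (median 583), against 452 to 711 (median 510) for c. Of the x blood arrays, array 5 was the one inside the c range. Csf1r, the receptor for the macrophage growth factor, fell by 0.81 log2 in blood, and cathepsin S (Ctss) fell by 0.69 log2 in blood, and their differences of -0.58 and -0.66 log2 passed. The summed intensity of the monocyte list was 13900 to 27500 on x blood arrays and 17900 to 26100 on c blood arrays.

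Other large differences towards spleen came from falls in blood. Ahr, a ligand-activated transcription factor, fell by 1.08 ± 0.24 log2 in blood (adjusted p = 0.00163) and had 0.54 ± 0.23 log2 in spleen (adjusted p = 0.349). The intensity of Ahr on the 5 x blood arrays was 72, 70.6, 57.8, 62.3 and 252, against 128 to 354 with a median of 194 on the 6 c blood arrays. In spleen the x arrays lay between 302 and 407 (median 316) and the c arrays between 169 and 308 (median 222). The x blood arrays 1 to 4 lay below every c array and array 5 did not. The difference of Ahr was -1.63 log2 (adjusted p = 0.00237), and -1.95 log2 without array 5. Its call was lost in the second run of title numbers alone and with the beta-actin covariate. The adhesion receptor Adgre4, the dipeptidase Cndp2 and the membrane protein Tmem109 fell in blood, with x minus c in blood of -1.41 ± 0.23 log2 for Adgre4 and -1.19 ± 0.17 log2 for Tmem109, and with differences between tissues of -1.10 ± 0.31, -1.21 ± 0.21 and -1.09 ± 0.24 log2. Second probe sets of Ahr, Adgre4 and Cndp2, all dimmer, gave differences of -0.05, 0.01 and -0.14 log2. Of the other 4 probe sets of Tmem109, 1 gave -1.07 log2 and the others lay between -0.24 and 0.06 log2. The zinc finger gene Zfp825 also fell in blood, by 1.02 ± 0.11 log2, with all x arrays below all c arrays and a difference of -1.24 ± 0.15 log2, and its dimmer probe set gave -0.20 log2. In spleen its level was below the 30th percentile of genes.

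Of 29 genes of oxidative phosphorylation, 12 fell and 4 rose in blood (9.99% and 8.12% of all genes did), none passed in spleen, and 8 had a difference below 0 (4.44% of all genes) and 1 above. Examples are cytochrome c (Cycs, -0.71 ± 0.13 log2) and the complex III subunit Uqcrb (-0.52 ± 0.08 log2), whose dimmer probe set gave 0.05 log2. Of 26 cytosolic ribosomal protein genes, 10 fell and 3 rose in blood, none passed in spleen, and 6 had a difference below 0 and 2 above, to be read against the same shares of all genes. On the 5 x blood arrays, Rpl6 had intensities of 3381, 3501, 3132, 3412 and 4241, and on the 6 c blood arrays of 4275 to 4787 (median 4531). The 6 x spleen arrays ran from 5896 to 6445 (median 6250), against 5490 to 6647 (median 6179) on the 6 c spleen arrays. For Rpl6, all x blood arrays lay below all c blood arrays, and the difference was -0.43 ± 0.07 log2 (adjusted p = 0.000175). The medians of both lists were small, at -0.12 and -0.13 log2 in blood and at -0.04 and -0.02 log2 in spleen, in that order. With the beta-actin ratio as a covariate, 1 gene of each list passed for the difference, below 0 in both.

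Among 21 genes of the heat shock and unfolded protein responses, 5 had differences below 0 (4.44% of all genes did) and none above, and 1 with the beta-actin covariate. Hspe1, a mitochondrial chaperonin, fell by 0.69 ± 0.10 log2 in blood with no overlap and had 0.06 ± 0.09 log2 in spleen, a difference of -0.75 ± 0.14 log2 (adjusted p = 0.000839). Of 12 genes of the MHC class II list 5 fell in blood (9.99% of all genes did) and 1 rose in spleen, and 4 had a difference below 0 (4.44% of all genes). The list includes Ifi30, which is not itself an MHC gene. Ifi30 is the 1 that rose in spleen and is counted among the falls in blood and the differences. With the beta-actin covariate none of the 12 passed in blood or for the difference. H2-Eb1 fell by 0.47 ± 0.07 log2 in blood with every x array below every c array, had -0.01 ± 0.07 log2 in spleen, and differed by -0.46 ± 0.10 log2 (adjusted p = 0.00406). B cell markers fell in blood in 6 of 13 cases (9.99% of all genes did) and rose in 1, none passed in spleen and none passed for the difference, while with the 4 arrays that stood apart left out 6 had a difference below 0. Pcna, the sliding clamp of DNA replication, fell by 0.65 ± 0.10 log2 in blood, and its difference was -0.59 ± 0.14 log2. The helicase subunit Mcm4 rose by 0.40 ± 0.08 log2 in spleen, and its difference was -0.54 ± 0.11 log2.

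**Figure D4:**
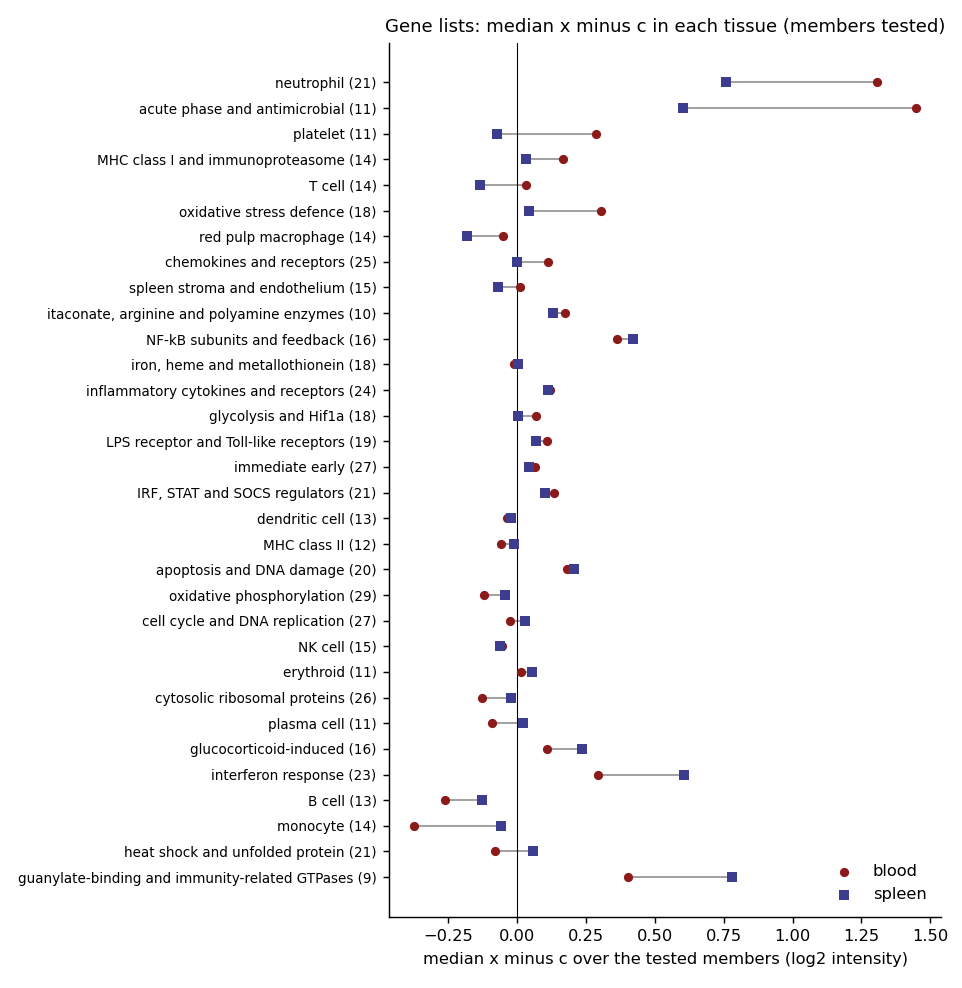
Median x minus c (log2 intensity) over the tested members of each of 32 gene lists, with blood as circles and spleen as squares, ordered by the median blood minus spleen difference, largest at the top. The neutrophil list has medians of 1.31 log2 in blood and 0.76 log2 in spleen, and the interferon list 0.29 log2 in blood and 0.61 log2 in spleen.

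In all, 12 genes were called in both tissues in opposite directions, and the difference passed for all of them. For 9 the x arrays were lower in blood and higher in spleen, and for 3 higher in blood and lower in spleen. Ifi30, a lysosomal thiol reductase used in antigen processing, fell in blood and rose in spleen. Blood intensities of Ifi30 were 1651, 1682, 1413, 1353 and 2058 on x arrays 1 to 5, against 1815 to 2462 (median 2027) on the c arrays. Spleen intensities were 3104 to 4754 on x arrays (median 3687) and 2196 to 2794 on c arrays (median 2355). In blood all x arrays lay below all c arrays once the arrays were normalized, and in spleen the groups did not overlap. It fell by 0.44 log2 in blood and rose by 0.59 ± 0.10 log2 in spleen (adjusted p = 0.00224 and 0.000189), a difference of -1.03 ± 0.14 log2.

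Spred1, an inhibitor of Ras signalling, did the same. In blood Spred1 measured 551, 528, 506, 558 and 586 on the x arrays, against c arrays of 622 to 845 with a median of 712. For spleen, x intensities spanned 409 to 528 with a median of 461, and c intensities 297 to 354 with a median of 323. No x array overlapped a c array in either tissue. Its difference was -0.90 ± 0.11 log2 (adjusted p = 1.08e-05), and its dimmer probe sets gave -0.68 and -0.50 log2. The ETS family repressor Etv3, the zinc transporter Slc39a1, Ccdc71l and the GATA1 cofactor Zfpm1 had differences of -1.09 ± 0.19, -0.96 ± 0.13, -0.93 ± 0.15 and -0.71 ± 0.13 log2 with the same signs. Etv3 and Zfpm1 had other probe sets with differences of 0.08 and 0.10 log2.

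The reverse order was seen for the linker histone gene H1f2 and the repressor Klf3. Intensities of Klf3 in blood were 755, 848, 697, 888 and 1072 on x arrays, against 605 to 728 (median 692) on c arrays. Among spleen arrays, x values were 405 to 580 (median 528), against c values of 599 to 745 (median 666). The blood ranges overlapped as deposited, and after normalization neither tissue's groups did. Klf3 rose by 0.29 ± 0.08 log2 in blood and fell by 0.41 log2 in spleen (adjusted p = 0.0159 and 0.00207). For H1f2 the values were 0.43 ± 0.10 log2 in blood and -0.36 ± 0.10 log2 in spleen, and the difference was 0.79 ± 0.14 log2. With the beta-actin ratio as a covariate the blood values of H1f2 and Zfpm1 changed sign, to -0.02 and 0.08 log2.

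Genes that fell in x spleen numbered 80 (0.687% of those tested), and red pulp macrophage markers were among them. Of 14 such markers 1 fell and 1 rose in blood, and 4 fell and 1 rose in spleen, where their median was -0.18 log2. Of the same markers 2 had a difference above 0 and 1 below (3.39% and 4.44% of all genes did). With the 4 arrays left out 3 fell in spleen, where 195 of all genes then fell, and after median scaling 52 of all genes fell. The summed intensity of that list was 3900 to 6300 on x spleen arrays and 6520 to 7460 on c spleen arrays, which do not overlap. Such a sum is weighted towards the brightest members and does not show a fall across the list. Slc40a1, the iron exporter ferroportin, had -0.58 log2 in blood (adjusted p = 0.111) and fell by 1.88 log2 in spleen (adjusted p = 5.29e-06), a difference of 1.30 log2 (adjusted p = 0.0164). It was singled out after its values were seen. Mertk, a receptor for dying cells, was below the 30th percentile of genes in blood and had -0.05 log2 there, fell by 0.56 log2 in spleen with no overlap, and its difference was 0.51 ± 0.11 log2 (adjusted p = 0.00524). Spic, the transcription factor that specifies these macrophages, rose instead, by 0.88 ± 0.13 log2. Across x blood arrays, Spic had 125, 121, 140, 138 and 112 units of intensity, against 113 to 150 (median 117) across c blood arrays. Its x spleen intensities were 299 to 554 (median 433), against 170 to 328 (median 216) for c. The spleen groups overlapped through c array 2, and the difference was -0.84 ± 0.19 log2 (adjusted p = 0.00507).

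Kcnj10, an inwardly rectifying potassium channel, had a difference towards blood that came from spleen. The intensity of Kcnj10 on the 5 x blood arrays was 101, 101, 111, 92.8 and 92.3, against 78.9 to 114 with a median of 107 on the 6 c blood arrays. In spleen the x arrays lay between 61.2 and 112 (median 95.5) and the c arrays between 185 and 331 (median 306). In blood, where its level was below the 30th percentile of genes, the groups overlapped, and in spleen all x arrays lay below all c arrays. It had -0.01 ± 0.13 log2 in blood (adjusted p = 0.991) and fell by 1.53 log2 in spleen (adjusted p = 7.82e-09), a difference of 1.52 ± 0.18 log2 that passed with the beta-actin ratio as a covariate (1.83 log2, adjusted p = 0.0205). The T cell costimulator Cd28 had 0.08 ± 0.11 log2 in blood, fell by 0.56 log2 in spleen, and differed by 0.64 ± 0.15 log2 (adjusted p = 0.00786). Of 14 T cell markers it was the 1 whose difference passed, close to the 7.83% of all genes, and its dimmer probe set gave 0.20 log2.

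Many of the largest changes were found in both tissues. Of the 169 genes called the same way in both, the difference between tissues did not pass for 146. Acod1, which makes the antimicrobial metabolite itaconate, led them. On the 5 x blood arrays, Acod1 had intensities of 3230, 3990, 3047, 3769 and 751, and on the 6 c blood arrays of 115 to 548 (median 135). The 6 x spleen arrays ran from 1224 to 2279 (median 1370), against 70.7 to 529 (median 95.2) on the 6 c spleen arrays. Every x array was above every c array in each tissue, and the nearest were x array 5 and c array 5 in blood and c array 2 in spleen. It rose by 3.70 ± 0.43 log2 in blood and by 3.42 ± 0.41 log2 in spleen (adjusted p = 6.05e-07 and 3.29e-06), with a difference of 0.28 ± 0.60 log2 (adjusted p = 0.89). Without the 4 arrays the difference was 0.64 log2 (adjusted p = 0.0388). That p is no support for a difference, since those arrays were picked in part by Acod1 and other inflammatory genes.

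Cxcl2, a neutrophil attractant, rose by 3.15 ± 0.51 log2 in blood and 3.41 ± 0.48 log2 in spleen, and the difference of -0.26 ± 0.70 log2 did not pass (adjusted p = 0.919). Blood intensities of Cxcl2 were 773, 1788, 1221, 2192 and 1226 on x arrays 1 to 5, against 54.3 to 445 (median 135) on the c arrays. Spleen intensities were 993 to 2094 on x arrays (median 1127) and 41.6 to 878 on c arrays (median 73.2). The spleen c array at 878 was array 2, and the groups did not overlap in either tissue. Without the 4 arrays the difference was -0.53 log2 (adjusted p = 0.522). Cxcl10, a relative of Cxcl9, rose by 2.80 ± 0.34 log2 in blood and 2.79 ± 0.33 log2 in spleen, with a difference of 0.01 ± 0.47 log2 (adjusted p = 0.997), or 0.29 log2 without the 4 arrays (adjusted p = 0.522). In blood Cxcl10 measured 497, 781, 564, 686 and 76.8 on the x arrays, against c arrays of 42.3 to 53.7 with a median of 47.7. For spleen, x intensities spanned 763 to 1307 with a median of 1047, and c intensities 73.3 to 222 with a median of 128. All x arrays lay above all c arrays in both tissues.

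Clec4e, a receptor for mycobacterial glycolipid, and Cd14, the LPS co-receptor, rose by 2.91 ± 0.41 and 1.89 ± 0.27 log2 in blood and by 3.06 ± 0.39 and 2.32 ± 0.26 log2 in spleen. Fpr2, a receptor for bacterial formyl peptides, and the chemerin-binding receptor Ccrl2 rose by 2.18 ± 0.32 and 1.92 ± 0.26 log2 in blood and by 2.11 ± 0.31 and 2.64 ± 0.25 log2 in spleen. A p that misses the threshold does not show equal changes: the SE of these 4 differences ran from 0.36 to 0.57 log2. Lcn2, which withholds iron from bacteria, rose by 3.27 ± 0.46 log2 in blood and 2.10 ± 0.44 log2 in spleen, and its difference of 1.17 ± 0.64 log2 did not pass (adjusted p = 0.339). Intensities of Lcn2 in blood were 5442, 5624, 3849, 5944 and 1416 on x arrays, against 194 to 1936 (median 288) on c arrays. Among spleen arrays, x values were 1315 to 2598 (median 1618), against c values of 194 to 956 (median 312). The c blood array 5 was above x array 5. Without the 4 arrays the difference was 1.94 log2 (adjusted p = 0.000335), which is no support either, as those arrays were picked after such values were seen.

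**Figure D5:**
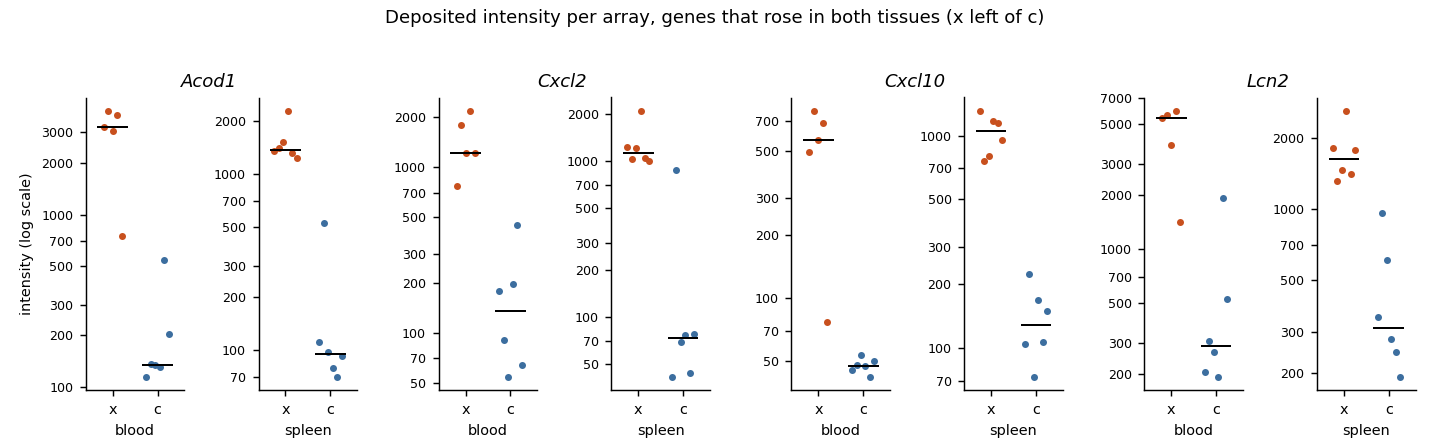
Deposited intensity on each array (log axis) for 4 genes that rose in x arrays of both tissues, with a blood and a spleen panel each, and lines at the medians. The single low x point in blood is array 5 (751 for Acod1, 76.8 for Cxcl10, 1416 for Lcn2), and the high c points are blood array 5 and spleen array 2.

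Of 16 NF-kB subunits and feedback genes 9 rose in blood (8.12% of all genes did) and 10 in spleen (2.35% of all genes), with medians of 0.36 and 0.42 log2, and the difference passed for 1 above 0 and 1 below. With the beta-actin covariate none rose in blood, where the median was 0.22 log2, and 10 rose in spleen. The inhibitor Nfkbie rose by 1.45 ± 0.15 log2 in blood and 0.65 ± 0.15 log2 in spleen, a difference of 0.80 ± 0.21 log2 (adjusted p = 0.0185) that turned to -0.18 log2 with the beta-actin ratio as a covariate. Traf1, a signalling adaptor, had 0.14 ± 0.13 log2 in blood and rose by 0.76 ± 0.13 log2 in spleen, a difference of -0.62 ± 0.18 log2 (adjusted p = 0.0347) whose call was lost in 12 of 23 fits with 1 array left out (-0.72 to -0.48 log2), with no filter on low values, in either run of title numbers alone and with the beta-actin covariate. The inhibitor Bcl3 and the subunit Relb rose by 1.85 and 1.34 log2 in blood and by 1.62 and 0.97 log2 in spleen. Among 19 genes of the LPS receptor and Toll-like receptors, 7 rose in blood (8.12% of all genes did) and 3 in spleen (2.35% of all genes). With the beta-actin covariate none of the 19 rose in blood, where the median was 0.06 log2, against 0.11 log2 without it. Tlr4 and Tollip had differences above 0 (0.58 and 0.50 ± 0.12 log2, that of Tollip at -0.02 log2 with the beta-actin covariate), and Tlr1 and Tab2 below 0 (-0.81 ± 0.17 and -0.52 log2).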

How the data were processed

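RNA was measured on 1-colour arrays of 22690 probe sets, and the deposited values are linear intensities, 1 per probe set and array. The sources used here do not say how the authors made these intensities, or which background correction and scaling were used (not stated). Each set of arrays has its own lowest value, so the blood and spleen sets appear to have been scaled apart. The code groups come from the sample titles.

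From these intensities log2(value + 16) was computed and quantile normalized within each tissue over its 11 or 12 arrays. Gene symbols came from the platform annotation: of 22626 probe sets kept after 64 controls were left out, 20380 had 1 symbol, 691 several and 1555 none. Each gene was represented by the probe set with the highest mean, and tested if at or above the 30th percentile in at least 1 tissue, which left 11645. Such a pseudocount and any added background shrink the changes of dim genes.

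With limma 3.58.1 in R 4.3.3, x minus c was tested in each tissue together with the difference between the tissues, in 1 fit over all 4 groups with a trended variance. Tests are two-sided with Benjamini-Hochberg adjustment over the 11645 genes, and an adjusted p of 0.05 was the threshold. "Rose", "fell" and "passed" refer to it. Statements on overlap refer to the normalized values unless deposited values are named.

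The genes named were the 12 with the largest differences in each direction, up to 8 called in opposite directions and up to 8 in the same direction in both tissues, and the 2 with the smallest p of each list with a call. Other list members are named where a list is described. The members and the 32 gene lists were chosen with earlier results of these data known. On simulated data with 11645 genes, 69% of 100 genes changed by 0.5 log2 and 94% of 100 changed by 1 log2 were recovered for the difference between tissues, with 12 false calls. The simulated noise was independent between genes, with 1 spread per gene for all 4 groups, and the changes were put in x blood alone. It held no outlying arrays and no shift in the beta-actin ratio, so these figures need not hold for the measured arrays. Other pseudocounts, scalings, filters, probe set choices, variance models and sample sets were tried as well.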

Additional observations from a re-analysis of the deposited data

Results flagged for a closer look

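Single arrays were far from the rest of their group, by Dixon's criterion, in 35 of 168 groups of values looked at, where chance gives about 1 in 20. The groups covered 40 genes and the beta-actin and Gapdh ratios, each by tissue and code. Of the 35, 15 came from x blood array 5 and 2 from c spleen array 6. The values are normalized log2 intensities of the outlying array.

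The x blood array 5 was low for Ngp (8.587, against 12.16 to 12.84 on the other x blood arrays), Camp (6.718), Il1r2 (9.307), Adpgk (7.702), Marcksl1 (8.641), Cd177 (9.161), Acod1 (9.362), Clec4e (10.33), Cxcl10 (6.562), Fpr2 (11.03), Lcn2 (10.24) and Cd14 (9.445). It was high for Ahr (8.006), Adgre4 (8.316) and Tmem109 (7.816). The c blood array 5 was high for Ngp (9.034), Acod1 (9.103) and Tmem109 (8.409), the c blood array 6 for Ccrl2 (8.409), and the c blood array 2 was low for Ccdc71l (9.053).

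The c spleen array 2 was high for Marcksl1 (10.01), Ccl4 (8.132), Acod1 (9.085), Cxcl2 (9.784, against 5.87 to 6.585 on the other c spleen arrays), Fpr2 (10.88), Ccrl2 (8.23) and Cd14 (9.845), and low for Kcnj10 (7.652). The c spleen array 6 was low for Pla2g7 (7.491) and Tmem109 (8.023), and the c spleen array 1 was high for Cndp2 (9.7). Among x spleen arrays, array 4 was high for Acod1 (11.12) and Cxcl2 (10.99), array 1 for Fabp5 (9.021), and array 6 was low for Scrg1 (7.237).

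The tissues differed in x minus c for 912 genes. Genes called in opposite directions in both tissues had blood minus spleen differences of -1.086 log2 for Etv3, -1.032 for Ifi30, -0.9605 for Slc39a1, -0.9338 for Ccdc71l, -0.9035 for Spred1 and -0.7125 for Zfpm1, and of 0.7859 for H1f2 and 0.6963 for Klf3.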

How the results depend on the processing

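The number of genes whose x minus c differed between tissues was 912, and 2108 in blood and 354 in spleen. Other pseudocounts, scalings, filters, variance models, added letter A arrays and the title-number run as a block left each of these counts within 1.5 times, but not their split: median scaling gave 338 differences above 0 and 323 below, against 395 and 517, and 257 higher and 52 lower in spleen, against 274 and 80. The first run of title numbers alone gave 1432 for the difference, and the second run alone gave 26, with 229 in blood and 169 in spleen. The second run holds fewer x blood arrays, x array 5 among them, as well as c blood array 5 and c spleen array 6. What lowered its counts was not tested. With the beta-actin ratio as a covariate, 379 passed for the difference and 425 in blood, and the cause was not tested; the median SE of the 912 was then 0.288 log2, against 0.13 log2. A size of at least 1 log2 left 56, 131 and 66.

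Leaving out 1 array at a time gave 693 to 1397 for the difference, 1743 to 2544 in blood and 304 to 426 in spleen. The highest count for the difference came without x blood array 5. Chosen after seeing the data, leaving out x blood array 5 and c spleen array 6 gave 1521 and leaving out all 4 arrays that stood apart gave 1481. Of 79 named differences that passed, 11 lost the call in at least 1 of the 23 fits with 1 array left out: Jak1 in 18, Acta2 in 15, Traf1 in 12, Cd177 and Tgfb1 in 10 each, Itga2b in 8, Camp and Adgre4 in 4 each, Ifit1 in 3, and Ngp and Cd209a in 1 each. Other settings cost more calls: 72 of the 79 were lost in the second run of title numbers alone and 13 in the first. With the beta-actin covariate 65 were lost and 4 more changed sign, and with letter A arrays added 14 were lost. The named values that changed sign did so with the beta-actin covariate: the blood values of H1f2 (-0.0221 log2), Zfpm1 (0.0834), Itga2b (-0.0815) and Col4a1 (0.114), and the differences of Itga2b (-0.0435), Tollip (-0.0199), Nfkbie (-0.177) and Ncf1 (-0.398), none of which passed. No paired analysis was possible because no title number is shared between the groups. The number of arrays, 5 or 6 a group, limits the precision.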

Other observations

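Of 21 IRF, STAT and SOCS genes, regulators of interferon and cytokine signalling, 9 rose in blood (8.12% of all genes did) and 3 in spleen (2.35% of all genes), and none fell. The difference passed for 2 of them, close to the 7.83% of all genes, the median difference was 0.01 log2, and with the beta-actin ratio as a covariate none rose in blood and 4 in spleen. Stat6, which carries interleukin-4 signals, rose by 0.91 ± 0.13 log2 in blood and had 0.15 ± 0.12 log2 in spleen (adjusted p = 0.862), a difference of 0.76 ± 0.18 log2 (adjusted p = 0.00659). Jak1, the kinase upstream of several STAT proteins, had a difference of 0.38 ± 0.12 log2 at the edge of the threshold (adjusted p = 0.0434): it lost its call in 18 of 23 fits with 1 array left out, on values as deposited, with median scaling, with letter A arrays added, in either run of title numbers alone and with the beta-actin covariate. Of 20 genes of apoptosis and DNA damage 10 rose in blood (8.12% of all genes did) and 7 in spleen (2.35% of all genes). The death receptor Fas rose in both, by 1.27 log2 in blood and 0.59 log2 in spleen, with a difference of 0.69 log2 that passed. With the beta-actin covariate none of the 20 rose in blood, where the median was 0.36 log2, and 8 rose in spleen. Of 11 acute phase and antimicrobial genes 7 rose in blood (8.12% of all genes did) and 4 in spleen (2.35% of all genes), with medians of 1.45 and 0.60 log2. With the beta-actin covariate none of the 11 rose in blood and 4 rose in spleen, with medians of 0.60 and 0.61 log2. Several genes of that list are also in the neutrophil list.

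No T cell marker of 14 rose or fell in blood, and 1 fell in spleen. Of 15 NK cell markers 1 rose and 2 fell in blood, and 2 rose and 2 fell in spleen (2.35% and 0.687% of all genes did). Among these markers the difference passed for 1 above 0, Eomes, and for 1 below 0, Gzmb (3.39% and 4.44% of all genes did). Eomes, a transcription factor of NK and memory T cells, differed by 0.50 ± 0.14 log2 (adjusted p = 0.0238). Its dimmer probe set gave 0.22 log2, and its call was lost in either run of title numbers alone and with the beta-actin covariate. Of 13 dendritic cell markers 3 had a difference below 0 (4.44% of all genes did), Cd83, Batf3 and Cd209a, and none with the arrays of the first run of title numbers alone or with the beta-actin covariate. Cd83, a maturation marker, rose by 0.65 log2 in blood and 1.14 log2 in spleen, and Batf3 and Cd209a differed by -0.36 ± 0.10 and -0.46 ± 0.13 log2 without passing in either tissue. None of 11 erythroid markers passed for the difference. Among glucocorticoid-induced and immediate early genes, Errfi1 and Btg2 differed towards blood by 0.90 ± 0.19 and 0.74 ± 0.16 log2, and Rgs1, a regulator of G protein signalling, rose by 1.09 ± 0.13 log2 in spleen and differed by -0.84 ± 0.19 log2. Arg2, an arginase, rose by 2.06 ± 0.31 log2 in blood and had 0.91 ± 0.30 log2 in spleen, and its difference of 1.16 ± 0.43 log2 did not pass (adjusted p = 0.108).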
